A study of Zea mays with 30 samples.

Results

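The step from 6 to 12 hours after imbibition (HAI) in maize inbred line 72-3 is the change in mRNA levels described here, and it was measured in 6 of the 30 libraries of the series, 3 libraries of 72-3 seeds at 12 HAI against 3 at 6 HAI. The members were chosen by the line and time in the sample labels, with earlier results of these data known. Each library was made from pooled whole germinating seeds, so embryo and endosperm were not separated, and seeds of both lines were grown in 1 field and germinated under the same conditions. 72-3 is the fast-germinating line, sampled at 0, 6, 12 and 24 HAI, and F9721 is the slow-germinating line, sampled at those times and also at 36 and 48 HAI, with 3 libraries per group. Seeds for germination were sterilized with hydrogen peroxide and imbibed in water, the labels name no other agent and no introduced allele, and the 0 HAI libraries came from dry seeds. Both lines are inbred, so the comparison between them rests on 1 genotype each. The study's methods take replicates from different ears but tie no library number to an ear, so p values measure the spread between these libraries.

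A dry maize seed holds a stock of mRNA made while the seed matured on the ear. When water enters, respiration and translation restart within hours, partly on those stored mRNAs, and the embryo then begins to transcribe genes for hormone signalling, reserve breakdown and cell wall loosening before the radicle emerges. In a cereal grain the embryo and aleurone are alive, while the starchy endosperm is dead at maturity.

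Reads counted on genes numbered 13604455, 10706871 and 9161046 in the 12 HAI libraries of 72-3, against 10114588, 10939417 and 8080968 in the 6 HAI libraries. Levels are given as normalized CPM, read counts per 1e+06 of the library total after scaling by the TMM method of edgeR, and are not corrected for gene length, so level classes and shares of counts that set genes beside each other in CPM also carry gene length. TPM, transcripts per 1e+06 transcripts, corrects for it. Of 39005 genes, 34746 had at least 1 read and were tested with edgeR's quasi-likelihood test, with p values adjusted by the Benjamini-Hochberg method over all of them. A differentially expressed gene (DEG) differed at least 4-fold in either direction, a log2 fold change of 2 or more in size, with an adjusted p no higher than 0.01, and a gene that "passed" met the adjusted p alone. A gene with at most 3 counts in every library of a group counted as being at the limit of detection there, which lay between 0.196 and 0.397 CPM in these 6 libraries.

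A pair of libraries stood apart from their groups. Replicate 2 at 6 HAI correlated with the other 6 HAI libraries at r = 0.978 in each case, against 0.992 between those others, and was nearer to the 12 HAI libraries than they were. Replicate 1 at 12 HAI correlated at 0.981 and 0.983 with the other 12 HAI libraries, against 0.988 between those others. Replicate 3 at 6 HAI had 20.9% of its reads outside annotated genes, against 11.1% to 13.1% in the other 5 libraries. Counts are therefore also given without the libraries that stand apart.

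The step was mostly a gain. From 6 to 12 HAI, 524 genes were DEGs in 72-3, 509 higher and 15 lower at 12 HAI, which is 1.51%, 1.46% and 0.0432% of the genes tested. Among the 509, the median log2 fold change was 2.84, with a range of 2.004 to 7.70. Among the 15, the median was -2.18, with a range of -4.78 to -2.02. The libraries of the groups did not overlap for 495 of the 509 and for all 15, where over all genes tested 17.7% lay wholly higher and 16.9% wholly lower at 12 HAI. The DEGs were chosen on these same libraries, so the choice largely fixes this and it is no separate support. With only the adjusted p as the threshold, 2618 genes passed as higher and 1978 as lower, 7.53% and 5.69% of those tested (13.2% together), so that 57.0% of the genes that passed were higher. The genes that passed as lower moved by less, with a median log2 fold change of -0.83 against 1.10 for those that passed as higher. At least 2-fold changes were found for 1507 of the higher and 655 of the lower genes.

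The balance of higher to lower genes at the adjusted p alone depended on how libraries were scaled, while the excess of higher DEGs did not. Scaling by library totals without TMM put the median log2 fold change of the 21597 genes with a mean CPM of at least 1 at 0.30, against 0.02 with TMM, and 88.1% of the genes that passed were then higher. On the deposited TPM values, tested with limma, 92.8% were higher with a pseudocount of 1. Other settings moved the split the other way. With DESeq2 lower genes outnumbered higher ones, 3013 against 2764 (47.8% higher), and with DESeq2's size factors in edgeR 50.7% were higher. In counts of genes, 5066 passed as higher and 686 as lower without TMM, and 5736 and 448 on log2(TPM + 1). Without TMM 784 DEGs were higher and 1 lower. Whether total mRNA per seed differed between 6 and 12 HAI was not measured, and all changes are relative to the TMM scaling.

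The counts also rested on particular libraries. Without replicate 1 at 12 HAI there were 273 DEGs, and 1340 genes passed as higher and 848 as lower. Without replicate 1 at 6 HAI there were 323, and 1508 passed as higher and 1000 as lower, while without replicate 3 at 6 HAI 1621 passed as higher and 1274 as lower. Replicate 1 held the highest 12 HAI value for 448 of the 509 genes, and replicate 2 held the highest 6 HAI value for 348 of them. Without replicate 2 at 6 HAI there were 757 DEGs, and without both libraries that stand apart there were 504, with 493 higher and 11 lower, and 332 of the 504 were among the 524.

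**Figure D1:**
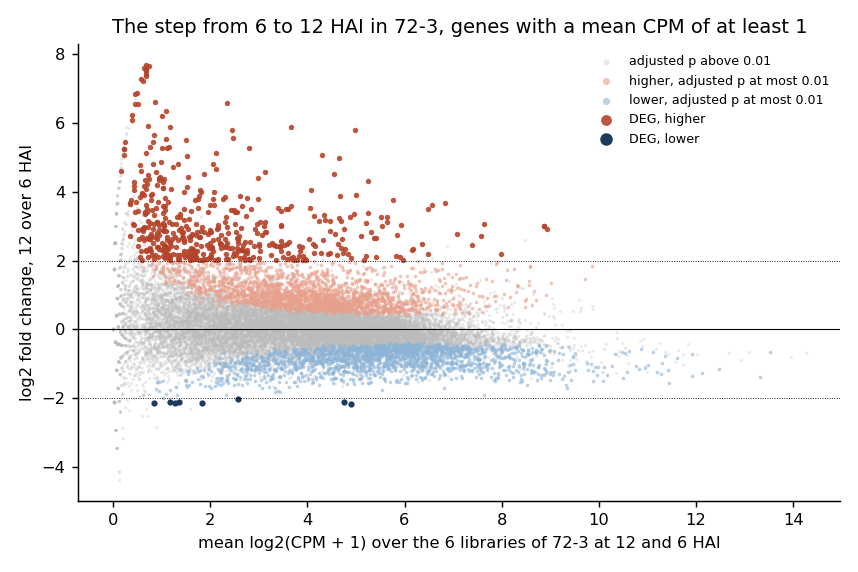
Each point is 1 of 21597 genes with a mean CPM of at least 1 over the series, by its mean log2(CPM + 1) over the 6 libraries of 72-3 at 12 and 6 HAI (x axis) and its log2 fold change of 12 over 6 HAI (y axis), with dotted lines at the fold limit of a DEG. The 467 higher DEGs drawn lie mostly at low levels, the 8 lower DEGs drawn sit just past the limit, and the most abundant genes lie mainly below 0.

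Most higher DEGs had been rare before the step, as were many of all genes tested. In dry seeds, 376 of the 509 had under 1 CPM, where 15562 of all 34746 genes tested did. At 6 HAI, 148 of the 509 were at the limit of detection in every library, and in dry seeds 253 were. Of all 34746 genes tested, 9686 were at the limit at both 6 and 12 HAI, so at least that many were at it at 6 HAI. Being at the limit at 6 HAI was thus not particular to the DEGs. Those 148 stayed rare at 12 HAI, with a median of 1.31 CPM and none above 7.13 CPM. Set against 3 counts in the shallowest 6 HAI library, the median of the 148 was at least 3.31-fold higher, and 63 of them were at least 4-fold higher. With these genes at that bound, the median log2 fold change of the 509 was 2.41 in place of 2.84. By mean level at 12 HAI, 49 of the 509 had under 1 CPM, 283 had 1 to 10, 139 had 10 to 100 and 38 had 100 or more.

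The 38 genes with 100 CPM or more carried most of the signal of the set. They made up 71.8% of the summed CPM and 69.2% of the summed TPM of the 509 at 12 HAI, with means of 109 to 2097 CPM at 12 HAI and 3.39 to 275 CPM at 6 HAI. Their median log2 fold change was 3.02. In the same step of F9721, which shares no library with that of 72-3, 22 of the 38 were higher DEGs, where 0.803% of all genes tested were. The median log2 fold change of all 38 in F9721 was 2.26.

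As a share of all counts, the 509 genes took 3.08%, 1.57% and 1.72% of the 12 HAI libraries, against 0.116%, 0.455% and 0.137% of the 6 HAI libraries. The groups did not overlap, which the choice of the genes fixes. Replicate 1 at 12 HAI and replicate 2 at 6 HAI, the libraries that stand apart, had the highest share of their groups. The share was 0.0737 ± 0.00152% in dry seeds and 6.96 ± 0.757% at 24 HAI (SD, n = 3 each).

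The libraries that the step did not use, at 24 and 0 HAI, gave a separate look at the same genes. Between 24 and 0 HAI in 72-3, 504 of the 509 (99.0%) were higher DEGs and none was a lower DEG, where 13.9% of all genes tested were higher DEGs. The median log2 fold change was 5.96 for the 509, against 0.13 for all genes with a mean CPM of at least 1. Of the 15 lower DEGs, 12 were lower DEGs between 24 and 0 HAI, where 7.64% of all genes tested were, and their median was -5.42. At 24 HAI, 9 of the 15 were at the limit of detection in every library, and at 12 HAI 5 were.

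Zm00001d002871 had the smallest p of the step among the DEGs whose libraries did not overlap. No table used here names it. It had 152, 109 and 156 CPM at 12 HAI, against 15.8, 14.4 and 12.8 CPM at 6 HAI, and every 12 HAI library was above every 6 HAI library. Its log2 fold change was 3.27 ± 0.21 (SE), a 9.69-fold difference in mean CPM (adjusted p = 2.77e-11, edgeR). In dry seeds of 72-3 it had 2.74 ± 1.13 CPM, and at 24 HAI 261 ± 53.0 CPM (SD, n = 3 each). In 72-3 the level of this mRNA was below that of F9721 at each of 0, 6 and 12 HAI, a difference between lines that was not tested. At 24 HAI the order was reversed, with 213 ± 11.6 CPM in F9721 (SD, n = 3), also not tested. The F9721 levels were 15.2 ± 4.47 CPM in dry seeds, 145 ± 15.1 CPM at 6 HAI and 362 ± 26.3 CPM at 12 HAI (SD, n = 3 each), the 6 HAI level lying near the 139 ± 26.1 CPM of 72-3 at 12 HAI. The step itself was smaller in F9721, with a log2 fold change of 1.32 ± 0.19 (SE, adjusted p = 2.07e-05, edgeR). The difference between the lines was 1.95 ± 0.27 on the log2 scale (SE, adjusted p = 1.45e-04 for the interaction of line and step, edgeR).

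Zm00001d010321, the other higher gene shown, also had no name in the tables. Its levels were 54.8, 49.5 and 61.3 CPM at 12 HAI, against 11.5, 14.1 and 10.1 CPM at 6 HAI. All 3 libraries at 12 HAI lay far above those at 6 HAI, with a log2 fold change of 2.21 ± 0.18 (SE, adjusted p = 2.47e-09, edgeR). F9721 had a log2 fold change of 1.49 ± 0.17 (SE), and the interaction did not pass (adjusted p = 0.145, edgeR).

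Zm00001d013169 had the highest CPM at 6 HAI of the 15 lower DEGs and no name in the tables. It had 8.88, 20.99 and 11.6 CPM at 12 HAI, against 76.9, 57.8 and 53.3 CPM at 6 HAI. The groups did not overlap, and the log2 fold change was -2.18 ± 0.32 (SE, adjusted p = 1.40e-05, edgeR). It did not pass on log2(TPM + 0.1) (-1.86, limma adjusted p = 0.0562), and it was under the fold limit of a DEG without TMM (-1.89) and without replicate 1 at 12 HAI (-1.94). Its level was 73.5 ± 29.1 CPM in dry seeds and 0.228 ± 0.153 CPM at 24 HAI (SD, n = 3 each), so that the 6 HAI libraries lay within the range of the dry-seed libraries. In F9721 the log2 fold change of the step was -0.18 ± 0.30 (SE, adjusted p = 0.853, edgeR), and the interaction missed the threshold (-2.01 ± 0.44 SE, adjusted p = 0.0122, edgeR).

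Zm00001d051532 had a low count, and 13 of the 15 lower DEGs had under 10 CPM at 6 HAI as it did. It had 0.783, 1.64 and 1.01 CPM at 12 HAI, against 5.53, 4.80 and 4.76 CPM at 6 HAI, with no overlap. The log2 fold change was -2.13 ± 0.35 (SE, adjusted p = 6.01e-05, edgeR), and it was under the fold limit of a DEG without TMM (-1.84), on log2(TPM + 1) (-1.19) and log2(TPM + 0.1) (-1.71), and without replicate 1 at 12 HAI (-1.90). The step of F9721 was -0.42 ± 0.37 on the log2 scale (SE), and the interaction did not pass (adjusted p = 0.0921, edgeR).

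**Figure D2:**
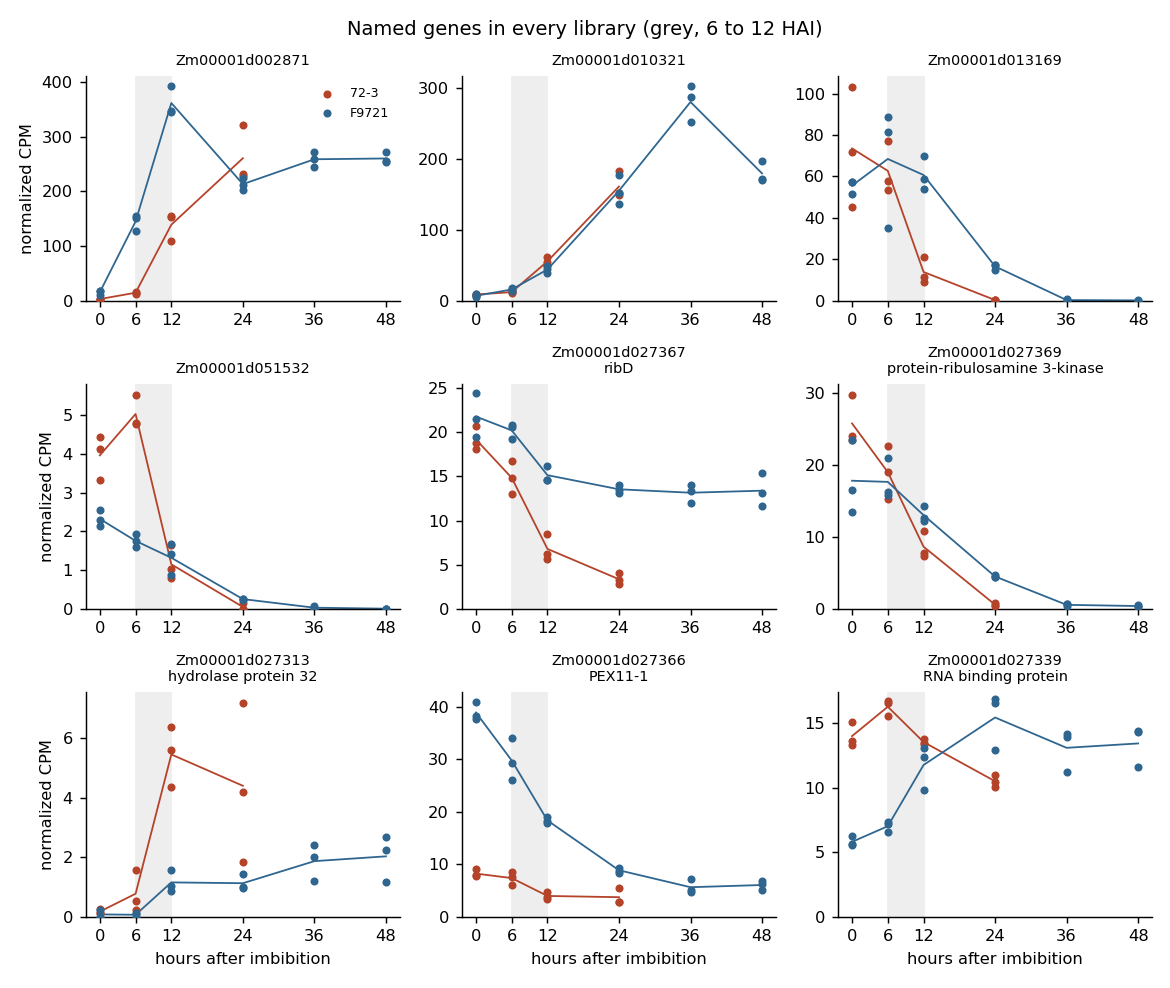
Normalized CPM (y axes, from 0) of 9 genes against hours after imbibition, with 1 point per library, lines through the group means, 72-3 in red and F9721 in blue, and the interval from 6 to 12 HAI in grey. Within that interval Zm00001d002871 gained 9.69-fold in 72-3 and Zm00001d013169 fell to a mean of 13.8 CPM at 12 HAI, against 62.7 CPM at 6 HAI.

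Genes that gained and genes that fell differed in the level they had in dry seeds. The classes were set by mean CPM, not corrected for length, in the dry-seed libraries of 72-3, which the step did not use. The share that passes also depends on the counts of a class. Genes near the limit of detection can hardly pass as lower, and abundant genes can pass on small changes. Among 15562 genes under 1 CPM in dry seeds, 543 (3.49%) passed as higher and 7 (0.0450%) as lower at 12 HAI, and 376 of the 509 higher DEGs were in this class. The 543 were 276 without replicate 1 at 12 HAI, 291 without replicate 1 at 6 HAI and 353 without replicate 3 at 6 HAI. Genes of 1 to 10 CPM had the largest share of gains of the 4 classes, with 1106 of 7530 (14.7%) passing as higher and 132 (1.75%) as lower. Genes of 10 to 100 CPM were nearly balanced, with 943 of 9646 (9.78%) higher and 1098 (11.4%) lower.

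With the TMM scaling, abundant stored mRNAs mostly fell where they changed. Of 2008 genes with 100 CPM or more in dry seeds, 26 (1.29%) passed as higher and 741 (36.9%) as lower at 12 HAI, and none was a DEG. Their changes were small, with a median log2 fold change of -0.44 over the class and -0.80 over those that passed as lower, and 240 fell at least 2-fold. With the classes set on the dry seeds of F9721, 35.5% of the highest class passed as lower. In F9721's own step, 46 (2.29%) of the 2008 passed as higher and 198 (9.86%) as lower, with a median of -0.22. For the interaction, 25 of the class passed with a more negative change in 72-3 and none with a more positive change, where 0.305% and 0.294% of all genes tested did (0.599% together).

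This pattern rested on the scaling and its size on the libraries, and on log2(TPM + 0.1) lower and higher genes were nearly balanced. With DESeq2, 1043 of the 2008 genes passed as lower and 34 as higher, and with DESeq2's size factors in edgeR 847 and 24 did. Without TMM, 310 passed as lower and 95 as higher. On log2(TPM + 1), tested with limma, 149 passed as lower and 106 as higher, and on log2(TPM + 0.1) 113 and 103 did. Leaving out replicate 1 at 12 HAI left 384 lower, and leaving out replicate 1 at 6 HAI left 424. In whole seeds, fewer cells of a type and less RNA per cell cannot be told apart.

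**Figure D3:**
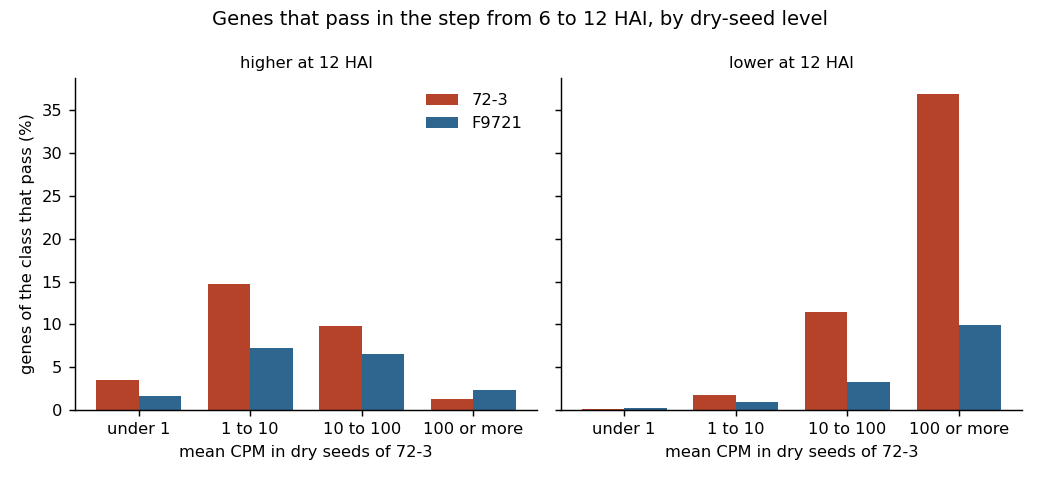
Share of genes (y axes, percent of the class) that passed an adjusted p of at most 0.01 as higher (left) or lower (right) at 12 than at 6 HAI, by mean CPM in the dry seeds of 72-3 (x axes), with 72-3 in red and F9721 in blue. The share lower climbs with dry-seed level to 36.9% in 72-3 and 9.86% in F9721, while the share higher is largest at 1 to 10 CPM, 14.7% in 72-3 and 7.21% in F9721. Genes with few counts can hardly pass as lower, so the shares also carry the counts of each class.

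The 100 mRNAs most abundant in dry seeds of 72-3 by TPM took a smaller share of the mRNA at 12 than at 6 HAI. They held 31.0%, 37.0% and 37.8% of all TPM in the 12 HAI libraries, against 50.7%, 47.0% and 50.5% in the 6 HAI libraries. Each 12 HAI library was below each 6 HAI library, and the means were 35.3 ± 3.75% at 12 HAI and 49.4 ± 2.07% at 6 HAI (SD, n = 3 each; two-sided exact permutation p = 0.1, the smallest that 3 against 3 allows). Dry seeds held 51.7 ± 0.630% and 24 HAI seeds 9.02 ± 2.41% (SD, n = 3 each). In F9721 the same genes held 45.4 ± 1.77% at 12 HAI and 52.1 ± 1.09% at 6 HAI (SD, n = 3 each; exact permutation p = 0.1).

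Gene by gene, 41 of the 100 passed as lower and 0 as higher in 72-3, and none was a DEG. The median log2 fold change was -1.001, from -1.91 to 0.38, with 99 of 100 negative. At an unadjusted p under 0.05, 79 were lower and 0 higher, where 14.0% of all genes tested were lower and 16.5% higher. In F9721, 2 passed as lower and 1 as higher, with a median of -0.26. The interaction passed for 0 of the 100 genes (edgeR), and 30 had an unadjusted p under 0.05, all 30 with the more negative change in 72-3, where 6.16% of all genes tested had such a change. The count of 41 was 15 without TMM, 7 on log2(TPM + 1), 10 without replicate 1 at 12 HAI, 17 without replicate 1 and 24 without replicate 3 at 6 HAI, and 86 with only the 6 libraries of the step in the fit.

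**Figure D4:**
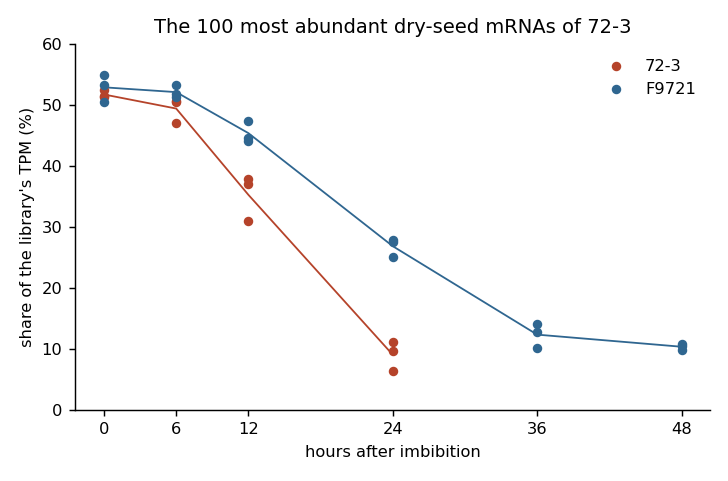
Share of each library's TPM (y axis, percent, from 0) held by the 100 mRNAs most abundant in dry seeds of 72-3, against hours after imbibition, with 1 point per library, lines through the group means, 72-3 in red and F9721 in blue. The 72-3 mean is 35.3% at 12 HAI and 9.02% at 24 HAI, while F9721 is at 45.4% at 12 HAI and 26.8% at 24 HAI.

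More genes were detected at 12 than at 6 HAI. With a CPM of at least 1 in 2 of 3 libraries as the criterion, 20364 genes were detected at 12 HAI and 19809 at 6 HAI. Of these, 1032 were detected at 12 HAI only and 477 at 6 HAI only. F9721 had 675 and 458 such genes in the same step.

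Set beside the other steps of 72-3, with which it shares libraries, the step from 6 to 12 HAI had as many DEGs as the step before it but many more small changes. The step from 0 to 6 HAI had 520 DEGs, 517 higher and 3 lower (1.5%, 1.49% and 0.00863% of genes tested). At the adjusted p alone, 1004 genes were higher and 34 lower (2.89% and 0.0979%, or 2.99% together). The step from 12 to 24 HAI had 3528 DEGs, 2016 higher and 1512 lower (10.2%, 5.8% and 4.35%). At the adjusted p alone, 5977 were higher and 5503 lower (17.2% and 15.8%, or 33% together). Genes that passed as lower thus numbered 34, 1978 and 5503 in the 3 steps in order of time.

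The same step in F9721 asks what the slow line did in the same hours. It had 295 DEGs, 279 higher and 16 lower (0.849%, 0.803% and 0.046% of genes tested), and 1477 genes passed as higher and 618 as lower (4.25% and 1.78%, or 6.03% together). Without replicate 1 at 6 HAI of F9721 there were 195 DEGs. Of the 509 higher DEGs of 72-3, 107 (21.02%) were higher DEGs in F9721, which is 38.4% of the 279. None of the 509 was a lower DEG there. The median log2 fold change of the 509 in F9721 was 0.999, against 0.01 for all genes with a mean CPM of at least 1, and 388 (76.2%) were positive, against 50.9% of all. At the adjusted p alone, 792 genes passed as higher in both lines, 30.3% of those in 72-3 and 53.6% of those in F9721, and 365 as lower, 18.5% and 59.1%. Only 14 genes passed in opposite directions. Across 21597 genes the fold changes of the lines had a Pearson r of 0.460 and a Spearman rho of 0.535, as a description, since genes are not independent replicates and share the libraries' depth and scaling.

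Later times of F9721 held more of the 72-3 step. Against 6 HAI, 341 of the 509 genes (67.0%) were higher DEGs by 24 HAI, 384 (75.4%) by 36 HAI and 405 (79.6%) by 48 HAI, where 5%, 8.23% and 10.2% of all genes tested were higher DEGs. The median log2 fold changes were 3.05, 3.67 and 4.10. These 3 comparisons share the 6 HAI libraries of F9721. Of the 15 lower DEGs, 0 were lower DEGs in F9721 at 12 HAI (edgeR), where 4 had a lower level at an unadjusted p under 0.05 (10.1% of all genes tested did), while against 6 HAI 5 fell past the DEG limits by 24 HAI, 10 by 36 HAI and 9 by 48 HAI. Of all genes tested, 2.1%, 8.53% and 8.86% were lower DEGs in those comparisons.

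**Figure D5:**
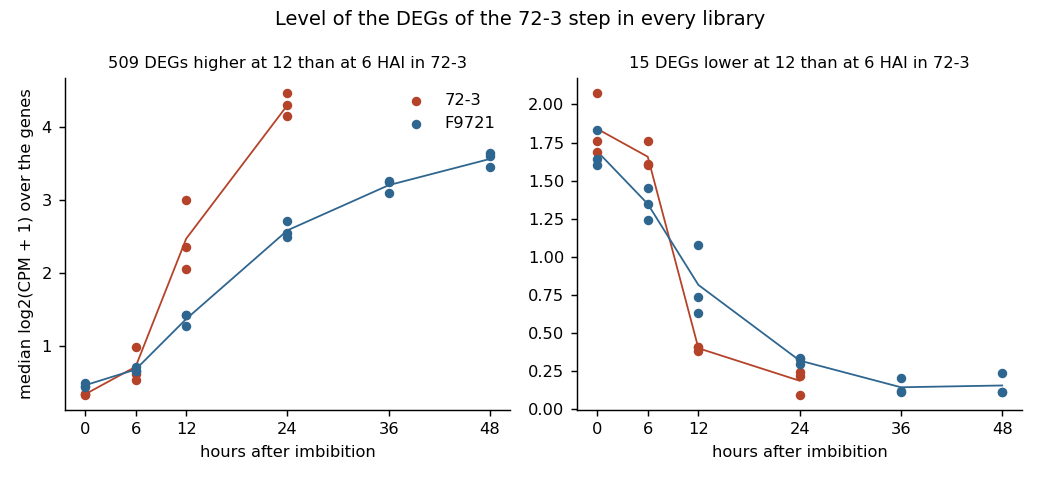
Median log2(CPM + 1) (y axes) of the 509 higher DEGs (left) and the 15 lower DEGs (right) of the 72-3 step in every library against hours after imbibition, with lines through the group means, 72-3 in red and F9721 in blue. The 509 lie between 2.05 and 3.00 in the 72-3 libraries at 12 HAI, and F9721 is at 1.27 to 1.42 at 12 HAI and 2.49 to 2.71 at 24 HAI.

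The interaction of line and step tested directly where the lines differed. It gave 66 DEGs (0.19% of genes tested), 43 (0.124%) with the more positive change in 72-3 and 23 (0.0662%) with the more positive change in F9721. For the 43, the median log2 fold change was 2.86 in 72-3 and -0.09 in F9721, and 34 of them were among the 509. Their median level was 16.4 CPM at 12 HAI and 2.30 CPM at 6 HAI in 72-3, against 3.32 CPM at 12 HAI and 3.89 CPM at 6 HAI in F9721, where it was 9.37 CPM at 24 HAI and 16.1 CPM at 48 HAI. For the 23, the median log2 fold change was -0.50 in 72-3 and 2.03 in F9721, and 12 were higher DEGs of the F9721 step. The median level of the 23 was 3.52 CPM at 12 HAI and 6.29 CPM at 6 HAI in 72-3, against 10.4 CPM at 12 HAI and 2.30 CPM at 6 HAI in F9721. The number of such DEGs was unstable, with 31 without replicate 1 at 12 HAI of 72-3, 35 without replicate 1 at 6 HAI, 43 without replicate 3 at 6 HAI, 101 without replicate 3 at 12 HAI and 99 without replicate 2 at 6 HAI. Leaving out F9721 libraries in turn gave 41 or 42. The split by direction was unstable too. At the adjusted p alone, 102 genes had the more positive change in 72-3 and 106 in F9721. As DEGs they numbered 15 and 16 without replicate 1 at 12 HAI of 72-3, and 16 and 19 without replicate 1 at 6 HAI. With an adjusted p of at most 0.001 there were 11 and 11, and without TMM 74 and 10.

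The study's candidate locus for germination speed, mapped on genetic markers and not on expression, lists 87 genes with descriptions, and these are the named genes available. Of them 82 had a read in some library, and 14 of the 82 were at the limit of detection at both 12 and 6 HAI in 72-3. In the step, 1 passed as higher and 3 as lower, 4.88% of the 82, where 13.2% of all genes tested passed. The median log2 fold change of the 68 above the limit was 0.12, against 0.04 for all genes above it. Without TMM 15 of the 82 passed (18.3%), where 16.6% of all genes did, and with only the 6 libraries of the step in the fit 7 did (8.54%), where 15.1% of all genes did.

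The study does not group the list, and its genes were sorted here by the words of their descriptions. In the group of metabolism and cofactors, 3 of 8 passed, where 13.2% of all genes tested did. For Zm00001d027313, 1 of the 3, the placing rests on the word hydrolase alone. Zm00001d027313, listed as hydrolase protein 32 with no further role, had 5.61, 4.35 and 6.39 CPM at 12 HAI, against 0.226, 1.57 and 0.529 CPM at 6 HAI. It was the only DEG of the locus, with no overlap and a log2 fold change of 2.74 ± 0.51 (SE, adjusted p = 2.03e-04, edgeR), and replicate 2, which stands apart, was its highest 6 HAI library. Leaving out each library in turn gave log2 fold changes of 2.30 to 3.85, the highest without that library. In F9721 the gene was at the limit of detection at 6 HAI, with 0 to 1 counts per library, and set against 3 counts in the shallowest of these libraries it was at least 3.39-fold higher at 12 HAI (adjusted p = 3.08e-03, edgeR).

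Zm00001d027367, annotated as ribD, a protein of riboflavin synthesis, had 5.68, 6.15 and 8.51 CPM at 12 HAI, against 16.7, 13.02 and 14.8 CPM at 6 HAI. It fell with no overlap, at a log2 fold change of -1.14 ± 0.16 (SE, adjusted p = 8.16e-06, edgeR). Zm00001d027369, a protein-ribulosamine 3-kinase, which phosphorylates sugars bound to proteins, had 7.70, 7.38 and 10.7 CPM at 12 HAI, against 22.6, 15.3 and 19.1 CPM at 6 HAI. It also fell with no overlap (log2 fold change -1.14 ± 0.20 SE, adjusted p = 1.25e-04, edgeR), and did not pass on log2(TPM + 0.1) (-0.73, limma adjusted p = 0.0212). Neither passed in F9721, and neither interaction passed (adjusted p = 0.0999 for Zm00001d027367 and 0.256 for Zm00001d027369, edgeR). Both malic enzyme genes of the list, Zm00001d011289 and Zm00001d012623, had 0 counts at 12 and 6 HAI in 72-3, which allows a level of up to 0.397 CPM in the shallowest library (counting error only).

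Of 8 tested genes of membranes, organelles and transport, 1 passed (12.5%), a share near the 13.2% of all genes tested. Zm00001d027366, the peroxisomal membrane protein PEX11-1, of a family that acts in peroxisome division, had 3.79, 3.36 and 4.76 CPM at 12 HAI, against 7.56, 5.97 and 8.60 CPM at 6 HAI. It fell by a log2 fold change of -0.89 ± 0.21 (SE, adjusted p = 2.74e-03, edgeR). Leaving out any 1 of 4 of the 6 libraries ended its call, with adjusted p values up to 0.0242, and without TMM the value was -0.61 (adjusted p = 0.0385, edgeR). On log2(TPM + 1) and log2(TPM + 0.1) it was -0.41 and -0.49 (limma adjusted p = 0.182 and 0.161). With only the 6 libraries of the step in the fit, the gene also missed the threshold (adjusted p = 0.0111, edgeR). The F9721 step was similar, at -0.70 ± 0.18 (SE, adjusted p = 0.0113, edgeR), and the interaction did not pass (adjusted p = 0.955, edgeR).

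Of 66 tested genes in the remaining groups of the list, 0 passed with edgeR, where 13.2% of all genes tested did, and 19 (28.8%) had an unadjusted p under 0.05, near the 30.5% of all genes tested. These groups held 12 tested genes of transcription, chromatin and RNA, 10 of protein targeting, folding and turnover, 7 of cytoskeleton, cell wall and cell surface, 3 of signalling, 4 named by family alone and 30 uncharacterized. The nearest was Zm00001d048527, rolled leaf 1, a developmental regulator, with 7.58 CPM at 12 HAI and 4.27 CPM at 6 HAI on average (log2 fold change 0.84, adjusted p = 0.0109, edgeR). Beta tubulin1, Zm00001d027295, a subunit of microtubules, averaged 123 CPM at 12 HAI and 131 CPM at 6 HAI (log2 fold change -0.09, adjusted p = 0.845, edgeR). Early nodulin-like protein 1, Zm00001d027346, averaged 9.65 CPM at 12 HAI and 2.72 CPM at 6 HAI, and its log2 fold change of 1.79 missed the threshold (adjusted p = 0.0288, edgeR).

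Zm00001d027339, an RNA binding protein, was the only gene of the list whose step differed between the lines. In 72-3 it had 13.4, 13.4 and 13.8 CPM at 12 HAI, against 15.6, 16.5 and 16.7 CPM at 6 HAI, with a log2 fold change of -0.27 ± 0.14 that did not pass (SE, adjusted p = 0.222, edgeR). In F9721 it rose, with a log2 fold change of 0.74 ± 0.15 (SE, adjusted p = 1.29e-03, edgeR). The interaction was -1.01 ± 0.21 (SE, adjusted p = 8.17e-03, edgeR), and it missed the threshold when any of 11 of the 12 libraries was left out, with adjusted p values up to 0.0323. It also missed the threshold with the replicate number as a block (adjusted p = 0.0111, edgeR), without TMM (0.0412, edgeR) and on log2(TPM + 1) and log2(TPM + 0.1) (0.0223 and 0.0245, limma). The 4 genes that the study cites as cold-germination candidates did not pass in the step of 72-3, with log2 fold changes from -0.88 to 0.63.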

How the data were processed

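Whole-seed RNA was sequenced as paired-end reads. The authors used fastp for trimming, HISAT2 for alignment to B73 AGPv4 and HTSeq in union mode for counting, so reads overlapping several genes were set aside, and genes with near-identical copies or overlapping or antisense neighbours are uncertain. Versions and strand setting are not given in the sources used here. The deposited counts per gene were not normalized, and the deposited TPM values, which the authors made in R, sum to 1e+06 per library. Count summary entries that name no gene were left out of library sizes.

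Counts were fitted in R 4.3.3 with edgeR 4.0.16 (TMM, 10 group means over all 30 libraries), and the fitting code was tested on simulated counts. Alternatives used DESeq2 1.42.0, limma 3.58.1, other scalings, filters, thresholds and libraries. Members and lists were chosen with earlier results of these data known. Named are genes of the study's candidate table that passed the step or the interaction, and up to 2 identifiers per direction with the smallest p among DEGs without overlap. Genes named for their values alone (rolled leaf 1, early nodulin-like protein 1, beta tubulin1 and the malic enzymes) were chosen after these were seen. The 39005 identifiers matched 0 RefSeq entries, so planned pathway lists, tissue markers and promoter searches were not run, and the tissue was not checked against markers.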

Additional observations from a re-analysis of the deposited data

Results flagged for a closer look

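The step from 6 to 12 HAI differed between 72-3 and F9721 for 66 genes by the interaction of line and step (edgeR, adjusted p no higher than 0.01 and a log2 difference of 2 or more in size). Of the genes named, Zm00001d002871 and Zm00001d027339 met the adjusted p but not the log2 limit, so neither is among the 66. Zm00001d002871 had the more positive change in 72-3 (1.95 on the log2 scale, edgeR adjusted p = 1.45e-04). Its level in 72-3 was nevertheless lower at both times of the step, 139 CPM at 12 HAI and 14.3 CPM at 6 HAI against 362 and 145 CPM in F9721. Zm00001d027339 had the more negative change in 72-3 (-1.01, edgeR adjusted p = 8.17e-03).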

How the results depend on the processing

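Every alternative run for 72-3 gave far more higher than lower DEGs. The 524 DEGs of its step became 344 on log2(TPM + 1) and 911 on log2(TPM + 0.1), and the F9721 step had 173 at an adjusted p of at most 0.001 and 133 on log2(TPM + 1). The interaction gave 120 with DESeq2, 145 with only the groups compared, 22 at 0.001 and 158 on log2(TPM + 0.1). Genes passing as higher were 5066 without TMM, 1414 at 0.001, 5736 and 5706 on TPM with pseudocounts 1 and 0.1, and 1688 with only the 72-3 libraries. Genes passing as lower were 3013 with DESeq2, 686 without TMM, 925 at 0.001, 448 and 265 on TPM, 1000 with only 72-3 and 1121 without the libraries that stand apart. In the class of 100 CPM or more in dry seeds, lower genes were 310 without TMM, 416 at 0.001, 149 and 113 on TPM and 409 with only 72-3, and higher genes 95, 13, 106, 103 and 15 in that order. In the class under 1 CPM, higher genes were 282 at 0.001, 989 and 1102 on TPM and 356 without the libraries that stand apart. Of the 100 most abundant, 15 were lower without TMM, 86 with only the groups compared, 15 at 0.001, 7 and 5 on TPM and 13 without the libraries that stand apart. Of the candidate locus, 15 passed without TMM, 7 with only the groups compared, and 13 and 14 on TPM. Zm00001d027339 turned to 0.018 without TMM and 0.13 on either TPM scale, not passing in any. Causes were not tested, and settings added after the data were seen were the sets of libraries of 72-3, and all alternatives for the counts at adjusted p alone, the dry-seed classes and the 100 most abundant mRNAs, whose share of counts in place of TPM was 19.1% at 12 HAI and 28.8% at 6 HAI.

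Leaving out each library in turn gave 273 to 757 DEGs for 72-3, 195 to 261 for F9721 and 31 to 101 for the interaction, with 1340 to 2769 genes higher and 848 to 2075 lower in 72-3. The highest class had 384 to 785 lower and 13 to 31 higher genes, the lowest class 276 to 593 higher, the 100 most abundant 10 to 37 lower, and the candidate locus 3 to 5 passing. With 2 libraries in a group, the fit pools the spread over all groups.

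Libraries of equal number did not deviate together (r of -0.23, -0.22 and -0.10 between 12 and 6 HAI). With 3 libraries per group, these correlations cannot exclude that the numbers pair the libraries. With the replicate number as a block there were 537 DEGs for 72-3, 300 for F9721 and 62 for the interaction, and of the calls on named genes the block ended that of the interaction of Zm00001d027339 (adjusted p = 0.0111, edgeR) and no other. The depth limits what could be shown for genes under about 0.397 CPM.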
